A study of Mus musculus with 6 samples.

Results

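The suppressors of cytokine signalling (SOCS) are a family of 8 intracellular proteins, encoded in the mouse by Cish and Socs1 to Socs7. All 8 genes were found on the arrays by their exact platform symbol, among 22180 genes with a probe set of 1 symbol. A probe set is the group of array probes that measures a transcript, and each gene was read from its probe set with the highest mean over all 6 arrays. No measured difference entered that choice. The family has 11 probe sets, with 2 each for Cish, Socs2 and Socs3 and 1 for each of the other 5 genes.

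Cytokine receptors signal through Janus kinases (JAKs), which phosphorylate STAT transcription factors, and activated STATs switch on several SOCS genes. The proteins then bind the receptor, the kinase or both through an SH2 domain and recruit a ubiquitin ligase through the SOCS box, which closes a negative feedback loop. In T cells CIS (from Cish) and SOCS2 are best known as products of IL-2 and STAT5 signalling, SOCS1 as a brake on interferon-gamma and common gamma chain cytokines, and SOCS3 as the brake on IL-6 signalling through STAT3.

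The study compared mouse CD8+ T cells in 2 cytokine conditions. Tc17 cells, a CD8 state that makes IL-17, were naive splenic CD8+ T cells polarised with IL-6 and TGF-beta. Tc1 cells, the state that makes interferon-gamma, were the same kind of cells polarised with IL-12. Both were stimulated with antibodies to CD3 (1 µg/ml) and CD28 (3 µg/ml), spent 3 days in their polarising cytokines within a culture of 4 days, and were then moved to IL-2 for the last day, so RNA of both groups came from cells last kept in IL-2. The sources used here do not give genotype, strain, age or cytokine doses. Each group had biological samples 1 and 2, and a technical array whose label carries the number 2 was read as a repeat of sample 2 and averaged with it. The values are RMA log2 intensities, on which a difference of 1 is a doubling of signal.

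The cells carried the markers of their labels. Il17a and Il17f had log2 differences (Tc17 minus Tc1) of 5.21 and 6.09, and Ifng and Tbx21 had differences of -5.49 and -2.79. Of 7 measured CD8 T cell markers none passed the test used below, and Cd8a had a mean of 12.78 in Tc17 and 12.91 in Tc1 (log2). Array medians lay between 6.04 and 6.09. Among markers of other cells, 1 of 9 macrophage and monocyte genes was called, Lyz2 with a difference of 3.53, and 1 of 6 neutrophil genes, Ly6g with 2.52. Of the 9, 8 had differences above 0 and 6 an unadjusted p under 0.05 in limma's test, all with higher values in Tc17, among them Mpeg1 (0.77) and C1qb (0.52). Over all genes 9.1% had such a p with higher values in Tc17. The array mean over the 9 macrophage and monocyte genes lay between 6.78 and 6.95 in Tc17 and between 6.13 and 6.36 in Tc1 (log2), while Csf1r, a defining macrophage gene, averaged 6.56 in Tc17 and 6.28 in Tc1. The part of these markers in the SOCS differences was not tested. In bulk RNA a larger share of cells with a transcript cannot be told apart from more of it per cell.

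The promoter window, from 250 bases before to 50 after the gene's start, was at hand for Cish, Socs1, Socs3 and Socs4 (RefSeq, build GRCm38.p6). The 3 shown belong to genes whose array values were higher in Tc17, though none of them passed the test used below. With no window for Socs2, Socs5, Socs6 and Socs7, a link of motif to difference was not tested. Capitals mark matches to TTCNNNGAA, the core of the element that STAT dimers bind, or to a GAAA repeat (GAAA, any 2 bases, GAAA), as found in interferon-stimulated elements. Both strands were searched, and the palindromic TTCNNNGAA is the same on each. Sequences run 5′ to 3′ on the gene's own strand, from chr9:107296409-107296708 (plus strand) for Cish, chr16:10785487-10785786 (minus strand) for Socs1 and chr11:117969317-117969616 (minus strand) for Socs3.
Cish: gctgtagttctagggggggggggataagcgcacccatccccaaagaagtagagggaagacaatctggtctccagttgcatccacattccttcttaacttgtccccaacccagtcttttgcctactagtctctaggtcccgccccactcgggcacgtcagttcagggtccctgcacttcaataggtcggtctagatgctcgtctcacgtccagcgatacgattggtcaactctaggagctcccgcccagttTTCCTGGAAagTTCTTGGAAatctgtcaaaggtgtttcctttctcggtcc
Socs1: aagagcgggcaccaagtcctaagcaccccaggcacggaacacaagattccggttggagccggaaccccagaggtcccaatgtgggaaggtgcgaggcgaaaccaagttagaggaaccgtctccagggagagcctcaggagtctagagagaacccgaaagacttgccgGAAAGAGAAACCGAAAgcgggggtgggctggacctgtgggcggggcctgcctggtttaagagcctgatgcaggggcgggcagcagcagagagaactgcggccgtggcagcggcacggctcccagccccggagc
Socs3: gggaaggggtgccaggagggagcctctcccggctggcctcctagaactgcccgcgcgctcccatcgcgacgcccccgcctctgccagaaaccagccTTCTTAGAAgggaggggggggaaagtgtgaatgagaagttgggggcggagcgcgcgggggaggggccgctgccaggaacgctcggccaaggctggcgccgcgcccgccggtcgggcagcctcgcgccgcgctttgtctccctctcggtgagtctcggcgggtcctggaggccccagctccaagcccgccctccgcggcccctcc
The Cish window held 2 matches to TTCNNNGAA, at bases 251 to 259 and 262 to 270 of its 300 bases, just past the gene's start. The Socs3 window held 1, at bases 97 to 105. The Socs1 window held no TTCNNNGAA but 2 overlapping matches to the GAAA repeat, at bases 168 to 177 and 174 to 183. The Socs4 window held neither motif. Among all 32851 promoter windows of this length, 8.30% held TTCNNNGAA and 3.44% held the GAAA repeat. These are matches of letters in a short window and not measured binding sites.

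None of the 8 SOCS genes passed limma's moderated test at an adjusted p of 0.05 over all 41345 probe sets, which 1.01% of the probe sets and 1.58% of the 22180 genes did. By size of difference, read after the values were seen, the members formed 2 sets. Cish, Socs1, Socs2 and Socs3 had log2 differences between 0.60 and 0.67 (1.52-fold to 1.59-fold higher in Tc17), and Socs4, Socs5, Socs6 and Socs7 had differences between -0.13 and 0.06. In each gene of the first set all 3 Tc17 arrays lay above all 3 Tc1 arrays, which was so for 15.2% of all genes. The same 4 genes had an unadjusted p under 0.05 in limma's test, against 15.9% of all genes in either direction and 9.1% with higher values in Tc17. A log2 difference of at least 0.5, a size chosen after the values were seen, was reached by these 4 members and by 4.04% of all genes. These counts come from the same differences that formed the sets and lend them no separate support. The other probe sets of Cish, Socs2 and Socs3 had differences of 0.30, 0.40 and 0.29, under that size. Which transcript the Socs2 probe set in these counts reads is uncertain, as described below. The median difference of the 8 members was 0.33, beside -0.01 over all genes.

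**Figure D1:**
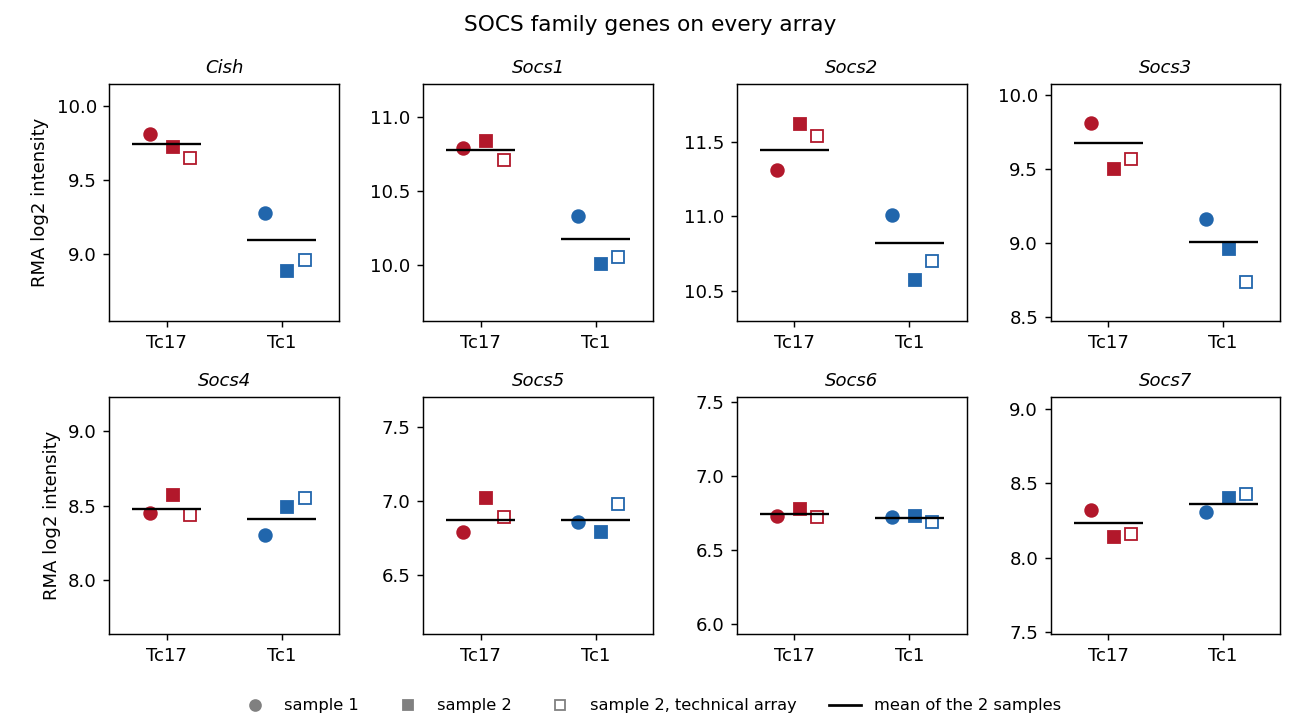
RMA log2 intensity of the 8 SOCS family genes on each array, with Tc17 left of Tc1; circles are sample 1, filled squares sample 2, open squares the technical array of sample 2 and black bars the mean of the 2 samples, and every panel spans the same log2 height. In Cish, Socs1, Socs2 and Socs3 no Tc17 array overlaps a Tc1 array, while the groups overlap in Socs4, Socs5, Socs6 and Socs7. The Socs2 panel shows the brighter of its probe sets, whose transcript is uncertain.

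Cish encodes CIS, which restrains IL-2 and T cell receptor signalling in CD8 T cells. It read 9.81 (sample 1), 9.72 and 9.65 (sample 2) on the Tc17 arrays, against 9.28 (sample 1), 8.89 and 8.96 (sample 2) on the Tc1 arrays (log2 levels, probe set 17521300). The Tc17 arrays stood close together and above the Tc1 arrays, among which sample 1 was the highest. The group means were 9.75 ± 0.09 in Tc17 and 9.10 ± 0.25 in Tc1 (log2, SD, n = 2 each). The log2 difference was 0.65 ± 0.14 (SE), or 1.57-fold with a 95% interval of 1.21 to 2.03, and it did not pass (limma adjusted p = 0.17).

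Socs2, a gene known for STAT5-driven feedback on growth hormone signalling, has a bright and a dim probe set. The bright one read 11.31 (sample 1), 11.62 and 11.54 (sample 2) on the Tc17 arrays, against 11.01 (sample 1), 10.57 and 10.70 (sample 2) on the Tc1 arrays (log2 levels, probe set 17274184). Tc17 was above Tc1 by 0.31 between the samples numbered 1 and by 0.95 between those numbered 2. The log2 difference of the group means was 0.63 ± 0.17 (SE; 1.54-fold, 95% interval 1.14 to 2.09), with the highest adjusted p among the 4 larger differences (limma adjusted p = 0.234). Which transcript this probe set reads is uncertain. In the order of probe set numbers all 6 neighbouring named genes lie on chromosome 12, whereas Socs2 and the neighbours of its other probe set lie on chromosome 10. That other probe set (17244486) read 7.06 (sample 1), 7.15 and 7.24 (sample 2) on the Tc17 arrays, against 6.80 (sample 1), 6.63 and 6.70 (sample 2) on the Tc1 arrays. Its groups did not overlap either, and they lay 0.40 ± 0.09 apart on the log2 scale (SE; adjusted p = 0.192 in limma).

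Socs1 encodes a direct inhibitor of JAK kinase activity. It read 10.79 (sample 1), 10.84 and 10.71 (sample 2) on the Tc17 arrays, against 10.33 (sample 1), 10.01 and 10.06 (sample 2) on the Tc1 arrays (log2 levels, probe set 17328104). The 2 Tc17 samples differed by 0.02, less than the 0.13 between the arrays of Tc17 sample 2, and the 2 Tc1 samples by 0.29. The group means were 10.78 ± 0.01 in Tc17 and 10.18 ± 0.20 in Tc1 (log2, SD, n = 2 each). With a log2 difference of 0.60 ± 0.12 (SE; 1.52-fold, 95% interval 1.22 to 1.88), Socs1 had the lowest adjusted p of the family, which did not pass (limma adjusted p = 0.145).

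Socs3, which binds the IL-6 receptor chain gp130 and inhibits the JAKs attached to it, had the largest difference of the family. It read 9.81 (sample 1), 9.5 and 9.57 (sample 2) on the Tc17 arrays, against 9.16 (sample 1), 8.96 and 8.74 (sample 2) on the Tc1 arrays (log2 levels, probe set 17272619). Sample 1 was the higher one in both groups, and the difference was 0.65 between the samples numbered 1 and 0.68 between those numbered 2. The log2 difference of the group means was 0.67 ± 0.15 (SE; 1.59-fold, 95% interval 1.20 to 2.10) and did not pass (limma adjusted p = 0.185).

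The second probe sets of Cish and Socs3 had smaller differences and overlapping groups. For Cish (17530881) the Tc17 arrays read 9.58 (sample 1), 8.81 and 9.25 (sample 2), against 9.42 (sample 1), 8.55 and 8.62 (sample 2) on the Tc1 arrays. Sample 1 was the highest in both groups, and the log2 difference was 0.30 ± 0.34 (SE; limma adjusted p = 0.784). None of the 5 neighbouring named genes with a known strand lay on the strand of Cish, whereas all 5 did for the brighter probe set used above. For Socs3 (17547600) the Tc17 arrays read 7.01 (sample 1), 6.53 and 6.34 (sample 2), against 6.63 (sample 1), 6.11 and 6.35 (sample 2) on the Tc1 arrays. Its log2 difference was 0.29 ± 0.24 (SE; adjusted p = 0.699 in limma).

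Socs4 and Socs5 encode closely related proteins with long amino-terminal regions that act on the epidermal growth factor receptor. Socs4 read 8.45 (sample 1), 8.57 and 8.44 (sample 2) on the Tc17 arrays, against 8.30 (sample 1), 8.49 and 8.55 (sample 2) on the Tc1 arrays (log2 levels). Socs5 read 6.79 (sample 1), 7.02 and 6.89 (sample 2) on the Tc17 arrays, against 6.86 (sample 1), 6.79 and 6.98 (sample 2) on the Tc1 arrays. The groups overlapped in both genes, with log2 differences of 0.06 (95% interval -0.20 to 0.33) for Socs4 and 0.00 (95% interval -0.23 to 0.23) for Socs5. Both signs changed when a sample was left out: Socs4 had -0.04 without Tc1 sample 1, and Socs5 had -0.01 without Tc1 sample 1 and -0.08 without Tc17 sample 2.

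Socs6 and Socs7 encode adaptors linked to receptor tyrosine kinase and insulin signalling. Socs6 read 6.73 (sample 1), 6.78 and 6.72 (sample 2) on the Tc17 arrays, against 6.72 (sample 1), 6.73 and 6.69 (sample 2) on the Tc1 arrays (log2 levels). Its whole range was the smallest of the family, and the difference was 0.02 (95% interval -0.16 to 0.21). Socs7 read 8.32 (sample 1), 8.14 and 8.16 (sample 2) on the Tc17 arrays, against 8.31 (sample 1), 8.40 and 8.43 (sample 2) on the Tc1 arrays. It was the only member with a difference below 0 (-0.13, 95% interval -0.38 to 0.13), and its samples numbered 1 differed by 0.01. The limma adjusted p of these 4 genes ran from 0.669 to 0.999. Their intervals, given above, all include 0 and are widest for Socs4 and Socs7. Socs5 and Socs6 averaged 6.87 and 6.74 in Tc17, not far above 6.06, the level of the median probe set. With no detection call on any array, differences near 0 at these levels do not show equal expression.

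**Figure D2:**
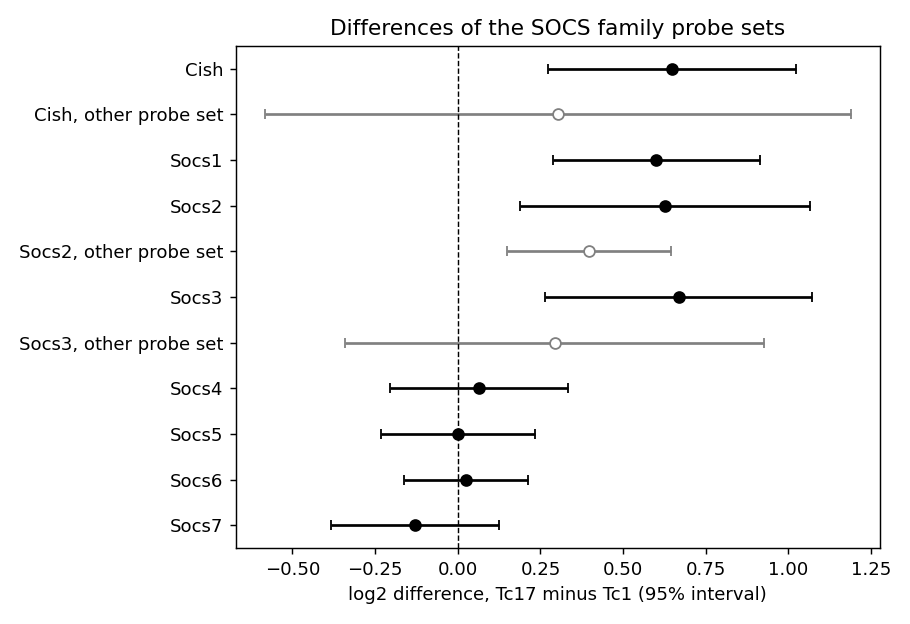
Log2 difference, Tc17 minus Tc1, of each SOCS family probe set with its 95% interval from limma; filled points are the probe sets that stand for the genes and open points the other probe sets of Cish, Socs2 and Socs3. The intervals of Cish, Socs1, Socs2 (both probe sets) and Socs3 lie above 0 before adjustment for the number of probe sets, and those of Socs4, Socs5, Socs6 and Socs7 include 0.

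The size of the 4 larger differences depended on which samples were used. Tc1 sample 1 was above Tc1 sample 2 in all 4 genes, by 0.29 (Socs1) to 0.37 (Socs2) on the log2 scale. Without Tc1 sample 1 the differences were 0.82 (Cish), 0.75 (Socs1), 0.81 (Socs2) and 0.82 (Socs3), and without Tc1 sample 2 they were 0.47, 0.46, 0.44 and 0.51 in the same order. In that order they were 0.59, 0.59, 0.76 and 0.53 without Tc17 sample 1. Without Tc17 sample 2 they were 0.71, 0.61, 0.49 and 0.81. All stayed above 0 with any 1 sample left out, and none passed (limma adjusted p = 0.153 to 0.549). All 4 passed with each of the 6 arrays as a sample of its own, or with the sample as a random block (limma adjusted p = 0.0124 to 0.0369). These fits called 2318 and 2074 probe sets. Technical arrays repeat a sample, and both fits use 4 residual degrees of freedom where 2 samples per group leave 2. Their passes are therefore overstated.

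**Figure D3:**
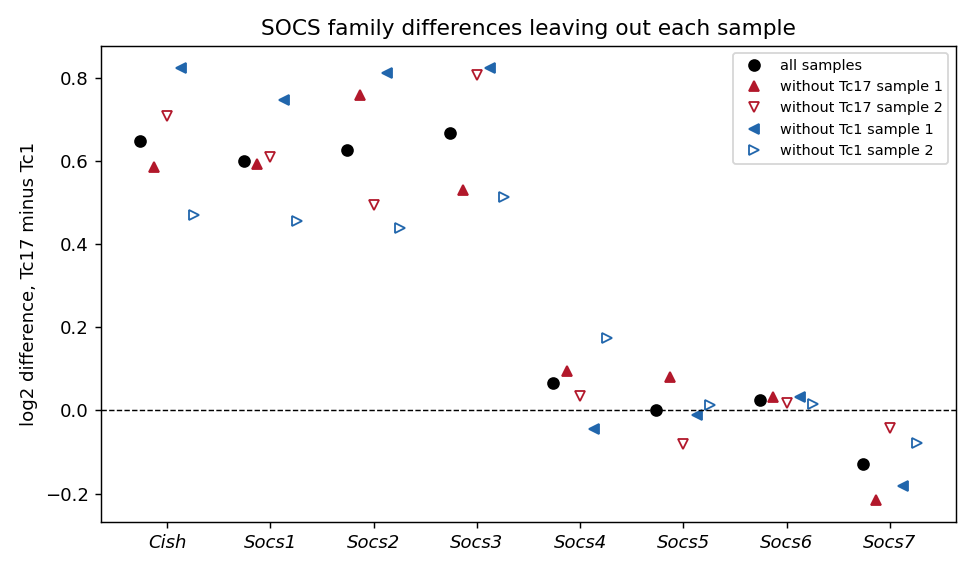
Log2 difference, Tc17 minus Tc1, of each SOCS family gene with all samples (black) and with 1 of the 4 samples left out (triangles, red for a Tc17 and blue for a Tc1 sample). Cish, Socs1, Socs2 (bright probe set) and Socs3 stay between 0.44 and 0.82, and the other 4 genes between -0.22 and 0.17. The first 4 could not fall below 0, as all their Tc17 arrays lay above all their Tc1 arrays.

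Likeness between genes was measured as the Euclidean distance over the 4 samples after removing each gene's mean, among 19239 genes left after predicted and clone-named ones were set aside. The rule had asked for members with a difference of at least 1, which none reached, so the size of 0.5 was used instead after the values were seen. Nearest to Cish were Sema6b (distance 0.02), Slc43a1 (0.05) and Cisd3 (0.05), and nearest to Socs1 were Ube2q2 (0.04), Vkorc1 (0.07) and Bicdl1 (0.07). Nearest to Socs3 were Lgmn (0.03), Gstt3 (0.05) and Siah3 (0.06). For Socs2, read from the bright probe set whose transcript is uncertain, they were Nav1, Zfp768 and Mir142 at larger distances of 0.14 to 0.17. None of these 12 genes passed limma's test, with adjusted p of 0.0941 (Bicdl1) to 0.199 (Slc43a1). They were picked for values close to those of a member that did not pass, so this adds no result of its own. Among these 4 members Cish lay 0.10 from Socs1 and 0.12 from Socs3, and Socs2 and Socs3 (0.39) were the farthest apart. Many genes came closer than other members: Socs1 was number 10 in order of distance from Cish and Socs2 number 242.

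The genes around the SOCS proteins in the pathway were read from 10 lists and compared with all genes, of which 0.992% were called higher and 0.591% lower in Tc17. Over the lists 12 genes were called, 9 higher and 3 lower, and leaving out Tc17 sample 1, Tc17 sample 2, Tc1 sample 1 or Tc1 sample 2 gave 6, 10, 7 or 4. Counts for samples left out below follow this order. Where a group mean was under 6.06, the median probe set, signal above background was not shown, which applies to Tc1 for Il3, Il9, Il21 and Il23r.

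Among 21 measured receptor chains of cytokines that activate STATs, Ifngr2 and Il6ra rose and Il15ra fell (median difference -0.01). With samples left out 1, 2, 1 and 1 were called higher and 0 lower: Ifngr2 passed each time, Il6ra (limma adjusted p = 0.0574 to 0.147) and Il15ra in none, and Il23r without Tc17 sample 2. Il6ra, the IL-6 binding chain whose signal SOCS3 restrains, read 9.73 (sample 1), 8.98 and 9.16 (sample 2) on the Tc17 arrays, against 6.51 (sample 1), 6.98 and 6.90 (sample 2) on the Tc1 arrays. Its partner Il6st, which encodes gp130, averaged 10.21 in Tc17 and 11.00 in Tc1 and missed the threshold (log2 difference -0.79, limma adjusted p = 0.174). Il15ra, the IL-15 presenting chain, had a log2 difference of -0.84 ± 0.08 (SE). With all samples the IL-12 receptor chain Il12rb2 (-1.16) and Il23r (1.59) did not pass, and the IL-2 receptor chains Il2ra and Il2rb had differences of -0.01 and -0.09.

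Of 16 ligands that act through STATs, Il21, Il3 and Il24 rose and Ifng fell (median 0.05). With samples left out 2, 3, 1 and 0 were called higher and 1, 1, 1 and 1 lower. Ifng passed each time, Il21 and Il9 without either Tc17 sample, Il3 only without Tc17 sample 2 and Il24 only without Tc1 sample 1. Il24, an IL-10 family cytokine, averaged 11.27 in Tc17 and 8.70 in Tc1, and Il3, a haematopoietic growth factor, averaged 8.47 in Tc17 and 5.43 in Tc1 (log2). Lif, a ligand that signals through gp130, read 11.15 (sample 1), 10.68 and 10.77 (sample 2) on the Tc17 arrays, against 9.36 (sample 1), 8.15 and 7.64 (sample 2) on the Tc1 arrays. Neither Lif (2.31, limma adjusted p = 0.168) nor Il9 (3.17, adjusted p = 0.0661) passed with all samples, and Il9 did so without Tc17 sample 1 or 2 (limma adjusted p = 0.031 and 0.0177).

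With all samples no kinase or STAT gene passed. Of the Janus kinases Jak1, Jak2 and Tyk2 were measured, with a median of -0.08; Jak2 had a log2 difference of 0.36 and Tyk2 of -0.12 (limma adjusted p = 0.292 and 0.69). Among 6 measured STAT genes the median was 0.31. Stat3, the factor activated by IL-6, averaged 12.83 in Tc17 and 12.33 in Tc1, 0.50 ± 0.07 apart (SE; adjusted p = 0.0802 in limma). It passed with a mean-variance trend in eBayes and with averaged probe sets (limma adjusted p = 0.0432 and 0.0281). With averaged probe sets its difference was unchanged, and the adjustment ran over 22180 genes. The STAT5 genes, whose products act downstream of IL-2, had differences of 0.52 (Stat5a, limma adjusted p = 0.16) and 0.45 (Stat5b, adjusted p = 0.145) and missed the threshold. By unadjusted p under 0.05 in limma's test there were 1 Janus kinase and 3 STAT genes, all with higher values in Tc17. The share of all genes with such a p and higher values in Tc17 was 9.1%.

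Inhibitors of JAK-STAT signalling outside the SOCS family had 1 call among 15 genes (0, 1, 1 and 0 with samples left out; median -0.03). Sh2b3 encodes the adaptor LNK, which restrains JAK2. It read 9.73 (sample 1), 9.68 and 9.58 (sample 2) on the Tc17 arrays, against 7.79 (sample 1), 7.91 and 7.83 (sample 2) on the Tc1 arrays. The gap between the groups far exceeded the spread within them, and Sh2b3 rose by 1.85 ± 0.08 on the log2 scale (SE; 3.60-fold, limma adjusted p = 0.00627). Usp18, an interferon-induced inhibitor of the interferon receptor, had -3.64, and Ptprc, the CD45 phosphatase gene, -0.50, and neither passed (limma adjusted p = 0.0755 and 0.0851). Both did with averaged probe sets, in a fit adjusted over 22180 genes (limma adjusted p = 0.0256 and 0.03).

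The machinery that SOCS proteins share with other SOCS-box proteins showed no call. None of 8 measured genes of the ubiquitin ligase passed (median -0.04; 1 with an unadjusted p under 0.05 in limma's test), and Cul5, the scaffold bound by the SOCS box, had a log2 difference of -0.19. Ube2f, a NEDD8-conjugating enzyme that acts on cullin 5, had -0.51 (limma adjusted p = 0.11). None of 27 other SOCS-box genes passed (0, 0, 1 and 0 with samples left out; median 0.01; 4 with an unadjusted p under 0.05 in limma's test). The largest difference among them was that of Asb2, which encodes the substrate receptor of a cullin 5 ligase and read 9.83 (sample 1), 9.68 and 9.68 (sample 2) on the Tc17 arrays, against 8.45 (sample 1), 7.89 and 7.59 (sample 2) on the Tc1 arrays. At 1.66 ± 0.25 (SE) on the log2 scale it missed the threshold (limma adjusted p = 0.0818), which it passed without Tc1 sample 1, where it was 2.02. Asb13 had a difference of 0.64 (limma adjusted p = 0.0818). Beside the unadjusted counts of these 2 lists, 15.9% of all genes had an unadjusted p under 0.05 in limma's test in either direction. With higher values in Tc17 the share was 9.1%.

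Target genes were read for STAT5 and STAT3, which induce SOCS genes. Among 18 IL-2 and STAT5 targets, the list closest to Cish and Socs2, Prf1 was called lower (-2.24) and none higher, with a median of -0.12. By unadjusted p under 0.05 in limma's test 2 were higher and 6 lower, beside 15.9% of all genes in either direction. Prf1 passed with each sample left out, and Gzmb did without Tc17 sample 2. With all samples Gzmb (-1.59) and Gadd45g (-1.10) did not pass, and Gzmb differed between the Tc17 samples, with 11.07 in sample 1 and 12.60 and 12.43 on the arrays of sample 2. Among 15 IL-6 and STAT3 targets, the list closest to Socs3, Maf, Il6ra and Il21 were called higher and no gene lower (median 0.09). Il10 (-1.81) and Il23r (1.59) did not pass. In this list 7 genes were higher and 3 lower by unadjusted p under 0.05 in limma's test. With samples left out 2, 3, 1 and 1 were called higher: Maf each time, Il21 without either Tc17 sample, and Il23r but not Il6ra without Tc17 sample 2.

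Tc17 cells had been cultured with TGF-beta. Of 10 genes of its receptor and SMAD pathway, Ski and Tgfbr1 were called higher and none lower, with a median of 0.52. Neither passed with any 1 sample left out (0 in all 4 fits), and Tgfbr1 did not pass without the technical arrays. Ski, a SMAD co-repressor gene, had a log2 difference of 1.20 and Tgfbr1, a receptor kinase gene, 0.97; Skil (1.28) and Smad3 (0.64) did not pass.

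**Figure D4:**
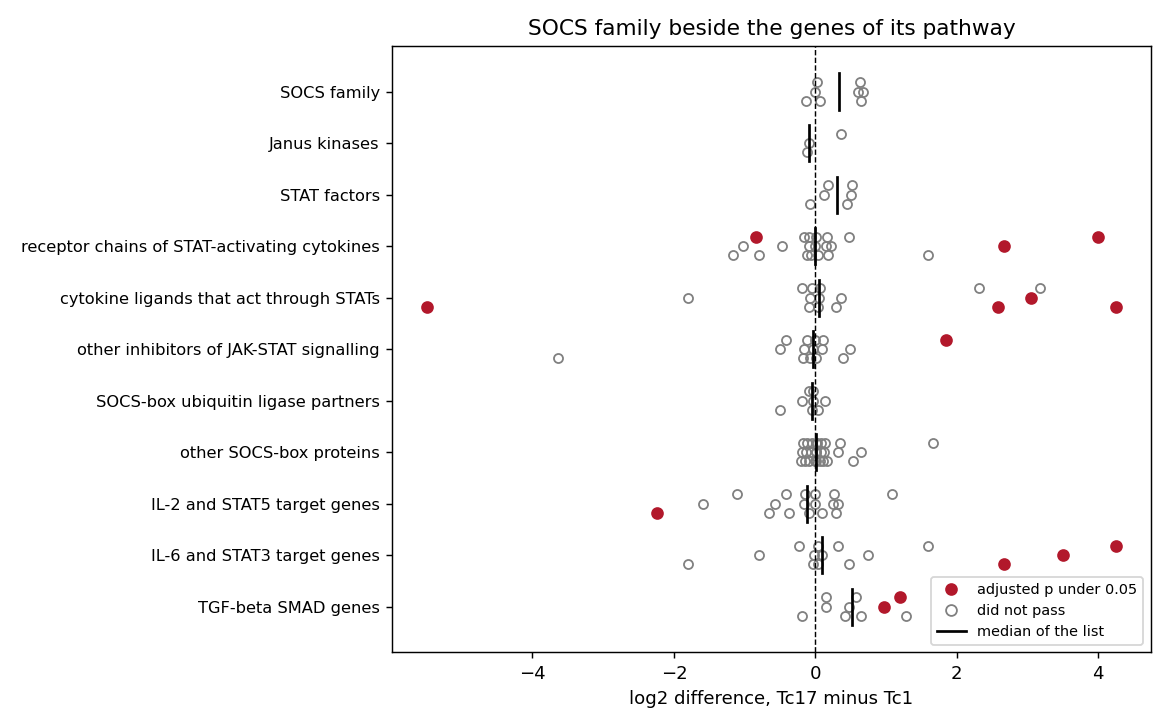
Log2 difference, Tc17 minus Tc1, of each measured gene (points, with a small vertical offset for legibility) in the SOCS family and 10 lists of its pathway; filled red points passed limma's test at an adjusted p of 0.05, open points did not, and black bars are list medians. The SOCS family median is 0.33, that of the IL-2 and STAT5 targets -0.12 and that of the SMAD genes 0.52.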

How the data were processed

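The authors deposited RMA log2 intensities of 41345 probe sets on 6 Affymetrix arrays, and the submitters' processing notes name RMA and Partek without a version. The sources used here do not give the genome build, the annotation release or which arrays were normalized together. No array has a detection call, so signal above background is not known for dim probe sets. Precision is limited by the small number of samples. Technical arrays were averaged with biological sample 2, leaving 2 samples per group. Nothing says that these came from separate animals, so the p-values may not speak for differences between animals. Each rests on the spread between these samples, moderated towards that of all probe sets.

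Tc17 was compared with Tc1 with limma 3.58.1 in R 4.3.3 (lmFit, eBayes), with 2 residual and 2.63 prior degrees of freedom and Benjamini-Hochberg adjustment over all probe sets, at a threshold of 0.05. Tables and figures used Python 3.11.15, pandas 2.3.3 and matplotlib 3.10.9. The platform annotation left 16010 probe sets without a symbol, gave several symbols to 1814 and a single one to 23521. Genes without a single-symbol probe set, such as Jak3 and Il2rg, were not analysed here, and 1 list of target genes is not reported here. Entrez identifiers matched 21994 of 22180 genes to RefSeq (GRCm38.p6), used for chromosomes and promoters.

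The members and lists were chosen with earlier results of these data known. All members were named, and of each pathway list up to 4 called genes and the 2 uncalled ones with the largest differences; other genes (Il6st, Il2ra, Il2rb, Stat5b) were named after their values were seen. On data simulated for Tc17 against Tc1 with 41345 probe sets, independent and with normal noise, the test recovered 60% of 50 probe sets raised by 0.7 and 84% of 50 raised by 1 on the log2 scale, with 12 false calls. The noise took variances already moderated by eBayes, and no size under 0.7 was simulated. These rates therefore do not carry over to the SOCS differences on the real arrays. Alternatives were the reading of the technical array, a replicate block, quantile normalization, median centring, a filter on level, eBayes with trend or robust, averaging all probe sets of a gene and leaving out each sample.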

Additional observations from a re-analysis of the deposited data

How the results depend on the processing

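The 2 samples per group limit every call. Of 153 alternative values of the 8 member differences and the 3 counts, 121 kept direction and side of the threshold (counts within 1.5 times). Much of this was fixed in advance. The replicate block, the filter and eBayes with trend or robust leave a member's difference unchanged, as averaging does for the 5 members with 1 probe set. No member passed in the main fit, so for members a kept side meant staying uncalled. The tally therefore does not measure robustness. With the 6 arrays as separate samples, Cish, Socs1, Socs2 and Socs3 had log2 differences of 0.69, 0.65, 0.73 and 0.67 and 4 members passed; with the sample as a random block they had 0.68, 0.64, 0.72 and 0.67 and 4 passed. In these settings 2318 and 2074 probe sets passed, against 418, and 39 list genes in each, against 12. Technical arrays repeat a sample, and both settings use 4 residual degrees of freedom where 2 samples per group leave 2.

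With the replicate number as a block, Cish (0.65) and Socs3 (0.67) passed, 2 members in all, with 1535 probe sets and 29 list genes (limma adjusted p = 0.0381 for Cish, 0.0239 for Socs3, 0.0516 for Socs1 and 0.138 for Socs2). Named list genes that gained a call under the block were Usp18 (limma adjusted p = 0.001), Ptprc (0.0499), Lif, Il9, Il10, Il12rb2, Stat3, Gadd45g, Asb2, Asb13, Skil and Smad3. The labels do not say that a number marks a shared origin. The deviations of same-numbered samples correlated at r = 0.31 over all probe sets, and 2 numbers are too few to settle the pairing.

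The filter on level called 648 probe sets among the fewer it tested. Averaging all probe sets of a gene called 25 list genes. That fit held 22180 genes instead of 41345 probe sets, which changed the adjustment and the moderated spread. This also held for genes whose difference stayed the same, such as Stat3 (0.4982). Asb2, Il9, Il10, Skil, Smad3 and Usp18 gained a call under both the filter and the averaging. Asb13, Gadd45g, Ptprc, Stat3 and Ube2f did so only under the averaging among the 2. Socs5 had -0.0174 after quantile normalization. Leaving out 1 sample gave 48 to 125 probe sets and 4 to 10 list genes, differences of -0.044 to 0.1734 for Socs4 and -0.0801 to 0.0812 for Socs5 (log2), and 0 members past the threshold. The direction of the 4 larger differences was the same in all 14 alternatives, from 0.44 (Socs2) to 0.82 (Cish). As all their Tc17 arrays lay above all their Tc1 arrays, no choice of samples or arrays could have reversed it.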
